A study of Mus musculus with 56 samples.

Results

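Aire, Fezf2 and 5 genes that act with them or beside them (Sirt1, Hipk2, Chd4, Deaf1 and Prdm1) were followed in thymic epithelial cells (TECs) through late pregnancy and the weeks after birth. The 7 genes were listed by name and found by Ensembl identifier among the 50600 genes of each sample. RNA was sequenced from 56 samples, 28 of cortical TECs (cTECs) and 28 of medullary TECs (mTECs), each from 1 mouse. Females of the B6.SJL strain (B.6SJL-Ptprca Pep3b/BoyJ-CD45.1) had been mated with BALB/cJ males, and every litter was taken away at birth, so that no postpartum mother nursed.

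The control group was NPC, age-matched females that were not pregnant, and D-2 was late gestation, 18 days into pregnancy. D0 was the day of parturition and D1 to D28 were the days after it. For each cell type there were 3 samples at NPC, at D-2 and at D0, D3, D6 and D12. The other 10 days (D1, D2, D4 and D5, then D8 and D10, then D16, D20, D24, D28) had a single sample. D0 to D12 make up the early phase after birth, with 18 samples per cell type, and D16 to D28 the late phase, with 4. TECs were freed from the thymus with papain, collagenase IV and DNase, enriched with EpCAM microbeads and sorted as EpCAM+CD45-; cTECs did not bind the lectin UEA1 and mTECs did. The ages of the mice were not given in the sources used here.

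The medulla of the thymus shows developing T cells the proteins of other organs, so that cells reactive to self can be removed or turned into regulatory T cells. Aire, carried by mature mTECs, releases stalled transcription at many such tissue-restricted genes, and Fezf2, a zinc finger transcription factor, switches on a largely different set. Aire is modified by partner enzymes, among them the deacetylase Sirt1 and the kinase Hipk2, and Fezf2 works with the chromatin remodeler Chd4.

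Levels are given in FPKM, fragments scaled by transcript length and by library size, which allows genes to be compared per length. That length was estimated in each library, so that FPKM does not follow counts alone. For Aire it ran from 1077 to 2966 bases and for Sirt1 from 1554 to 3905. Differences were fitted on expected counts with limma-voom across all genes, and a gene was called where it changed at least 2-fold and its adjusted p (Benjamini-Hochberg) did not exceed 0.01. Fitted differences are log2 fold changes with their standard error (SE). In sorted bulk samples, fewer cells that express a gene and less RNA per cell cannot be told apart.

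The libraries held 4561208 to 108547384 expected counts, the median library 17972566. Their markers followed the sort labels: the median of the summed FPKM of 6 cTEC markers was 2901 for cTECs and 284 for mTECs, and that of 6 mTEC markers was 15713 for mTECs and 6035 for cTECs. Summed markers of thymocytes reached 314 FPKM in cTECs and 115 in mTECs, and those of B cells 8.87 and 16.8. Those of macrophages and dendritic cells reached 41.2 FPKM in cTECs and 196 in mTECs. Their median in mTECs was 58.2, beside 29.9 for the thymocyte markers. The mTEC markers in cTEC samples were thus far from 0, and Krt5 in cTECs stood at 55.7% of its median in mTECs. Of genes with a median of at least 10 FPKM in the cell type, 7.66% were listed at 0 in cTEC D3 replicate 2, 4.07% in mTEC D3 replicate 1, 1.80% in mTEC D0 replicate 2, 1.68% in cTEC D20 and 1.201% in mTEC D3 replicate 2. These 5 libraries stand apart, with the others at 0.654% or less, and they are called high-dropout libraries where a value rests on them.

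The stretches before the start sites of Aire, Sirt1 and Fezf2 are shown because over the mTEC samples Sirt1 ranked among the genes most like Aire and Fezf2 did not. RefSeq gives 1 or 2 starts for each of the 7 genes (10 windows, build GRCm38.p6), and 250 bases before each start were searched on both strands for the TATA box TATAAA, the CCAAT box CCAAT, the E-box CACGTG, the GC box GGGCGG and the NF-kB consensus. Capitals mark every match. The Aire window spans chr10:78043611-78043860 on the minus strand and lies just outside the gene as GENCODE draws it. For Sirt1 (chr10:63339051-63339285, minus strand) and Fezf2 (chr14:12345960-12346115, minus strand), 15 and 94 bases that GENCODE counts as exon were left off the 3′ end. Unlike the Aire window, both lie inside the gene as GENCODE draws it, which reaches 63381704 for Sirt1 and 12348189 for Fezf2.
Aire: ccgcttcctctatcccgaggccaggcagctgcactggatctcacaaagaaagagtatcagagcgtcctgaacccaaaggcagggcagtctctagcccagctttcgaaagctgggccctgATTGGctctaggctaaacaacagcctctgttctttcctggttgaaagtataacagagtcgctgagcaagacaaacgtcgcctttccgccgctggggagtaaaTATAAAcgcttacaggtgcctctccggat
Sirt1: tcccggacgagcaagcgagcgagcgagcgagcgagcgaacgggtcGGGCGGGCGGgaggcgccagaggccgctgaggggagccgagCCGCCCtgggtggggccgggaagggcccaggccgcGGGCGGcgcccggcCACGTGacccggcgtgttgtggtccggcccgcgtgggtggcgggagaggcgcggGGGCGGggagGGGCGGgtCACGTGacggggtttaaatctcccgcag
Fezf2: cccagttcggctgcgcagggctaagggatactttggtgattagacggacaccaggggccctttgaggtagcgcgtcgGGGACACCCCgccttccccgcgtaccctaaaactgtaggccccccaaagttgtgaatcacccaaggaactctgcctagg
Aire held a TATA box 29 to 24 bases before its start, the one TATAAA among the 7 genes, against 12.4% of all 32851 RefSeq mouse windows of this length. It had 11 CpG pairs, where the median window has 6. Sirt1 held 39 CpG pairs, more than 98.4% of windows, with 6 GC boxes and a pair of E-boxes, a motif found in 6.02% of windows. Fezf2 had 14 CpG pairs, an NF-kB match that 7.25% of windows share, and a GC box in the part left off. CpG pairs were counted over the full 250 bases of each window, with the parts left off included. The windows of Aire and Sirt1 shared none of the searched motifs, and a match describes the letters only.

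Aire and Fezf2 were the mTEC genes of the set and Sirt1 joined them at a lower fold, while Chd4 and Hipk2 were near equal in both cell types. Over the 28 mTEC samples Aire ranged from 20.03 to 439 FPKM with a median of 96.5, and over the 28 cTEC samples from 0.090 to 18.9 with a median of 5.66. No mTEC sample overlapped any cTEC sample, which held for 0.810% of genes. The fitted difference was a log2 fold change of 4.36 (SE 0.35, adjusted p = 7.22e-15), a fold of 20.5, and mTECs were higher at all 16 time points. Fezf2 ranged from 99.5 to 195 FPKM in mTECs with a median of 159, and from 17.9 to 63.7 in cTECs with a median of 28.2. Its samples did not overlap either, and the log2 fold change was 2.46 (SE 0.077, adjusted p = 2.05e-29). Fezf2 in cTECs was thus 17.7% of its mTEC median and Aire 5.87%, beside 19.7% to 70.0% for the 6 mTEC markers.

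Sirt1 had a median of 27.2 FPKM in mTECs and 10.6 in cTECs, with a log2 fold change of 1.65 (SE 0.13, adjusted p = 1.77e-15). All its mTEC samples lay above the cTEC samples of the same time point at 15 of 16 time points, the exception being D3. Deaf1, a transcription factor related to Aire in its DNA-binding domain, leaned the other way, with medians of 12.4 FPKM in mTECs and 18.0 in cTECs. Its log2 fold change of -0.71 (SE 0.17, adjusted p = 0.000277) was under the 2-fold limit. Prdm1, which encodes the repressor Blimp-1, had medians of 1.58 and 0.885 FPKM and a log2 fold change of 1.06 (SE 0.40, adjusted p = 0.0233), and was not called. Chd4 (77.9 and 77.3 FPKM) and Hipk2 (15.4 and 16.9 FPKM) had log2 differences with 95% intervals of -0.092 to 0.098 and -0.30 to 0.024. In all, 3 of 7 genes were called, each higher in mTECs, beside 21.2% of all 18394 genes tested and 16.5% called higher.

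**Figure D1:**
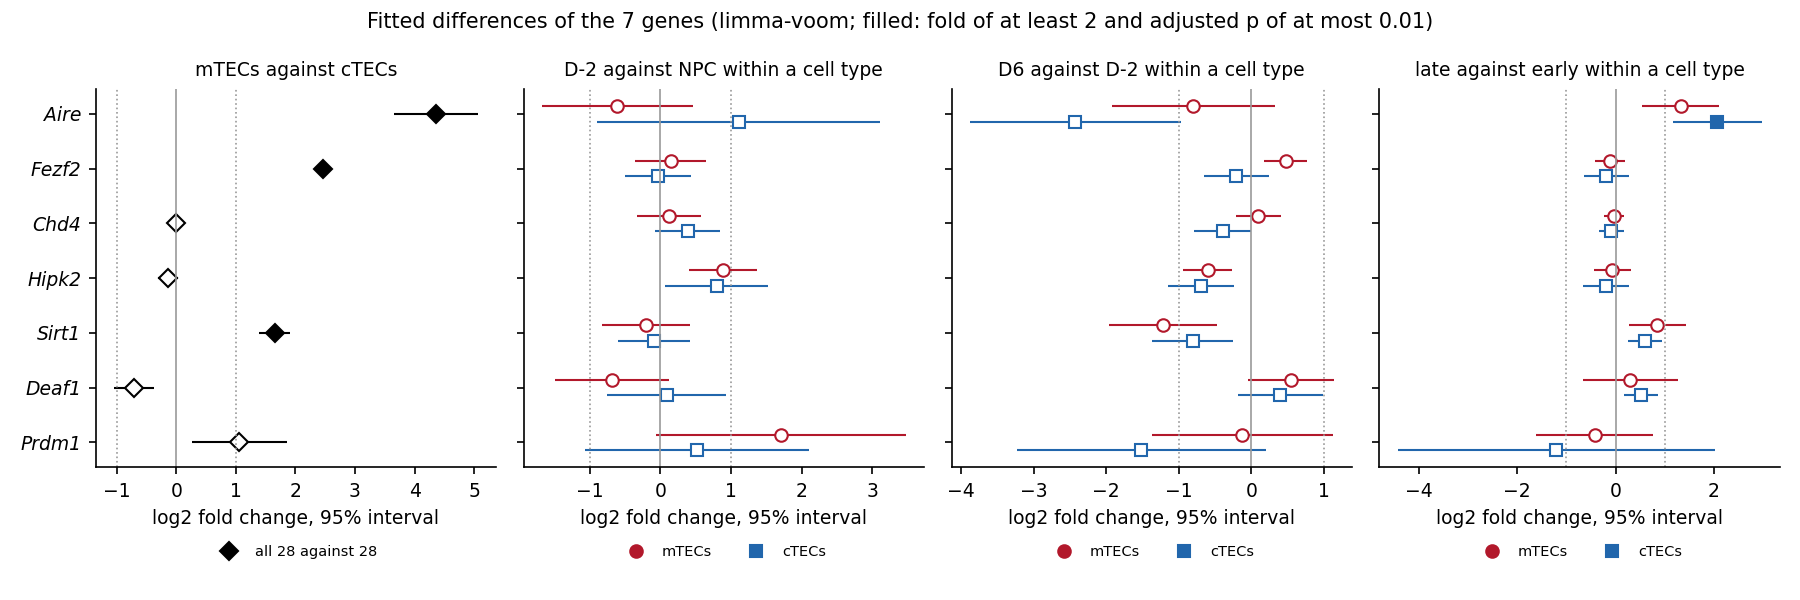
Log2 fold changes of the 7 genes with 95% intervals (x axes) in 4 kinds of comparison; filled symbols passed the 2-fold and adjusted p limits, dotted lines mark a 2-fold change, circles are mTECs and squares cTECs. Aire, Fezf2 and Sirt1 stand to the right in mTECs against cTECs, and Aire in cTECs is the one filled symbol among the comparisons over time.

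In mTECs the mean level of Aire was highest in NPC among the replicated time points and lowest at D3, and every library from D10 on held at least 111 FPKM. The NPC samples held 95.2, 102 and 317 FPKM, the D-2 samples 113, 149 and 50.1, and the D0 samples 55.9, 91.3 and 38.8. The single D1 and D2 samples held 26.8 and 50.3 FPKM, the D3 samples 20.03, 51.3 and 68.8, and the D4 and D5 samples 64.2 and 97.7. The D6 samples held 116, 26.7 and 46.4 FPKM, D8 held 88.0, D10 165, the D12 samples 151, 145 and 149, and D16, D20, D24 and D28 held 439, 135, 184 and 111. The lowest library of all was D3 replicate 1, a high-dropout library, and the highest the single D16 library, while the 3 D12 samples were nearly equal. By mean level the order of the replicated time points ran NPC, D12, D-2, D6, D0 and D3, and no neighbours in that order were separated. The first place of NPC rested on replicate 4 at 317 FPKM. By median NPC, at 102 FPKM, stood below D12 at 149 and D-2 at 113.

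None of these steps in mTECs passed the test. From NPC to D-2 Aire had a log2 fold change of -0.61 (SE 0.48, adjusted p = 0.613), with overlapping samples, and from D-2 to D6 one of -0.80 (SE 0.51, adjusted p = 0.405). The latter was -1.52 without D6 replicate 1, -0.26 without D6 replicate 2 and -0.081 with the replicate block. The block fits a mean for each replicate number. Only numbers 1 and 4 occurred in both groups, so its value came from those samples alone. No link between same-numbered mice of different time points was stated. The 4 late samples all lay above the early mean of 80.6 FPKM, and late against early gave 1.33 (SE 0.38, unadjusted p = 0.00178, adjusted p = 0.0599). The late samples overlapped the early ones. The summed macrophage and dendritic cell markers in these mTEC samples were 61.9 to 196 FPKM late and 12.9 to 104 early, and their part in the result was not tested. Without the D16 library the value was 0.87 (adjusted p = 0.286). With the 3 D12 samples moved to the late phase, the same contrast was 1.39 (adjusted p = 0.00582) and passed. Late mTECs against NPC gave 0.35 with a 95% interval of -0.75 to 1.45.

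In cTECs Aire stood at a much lower level, and its late rise was the 1 call over time among the 7 genes. The NPC samples held 7.60, 1.15 and 16.5 FPKM, the D-2 samples 4.66, 14.1 and 5.45, the D0 samples 5.89, 3.83 and 6.60, and D1 and D2 0.70 and 5.85. The D3 samples held 8.52, 12.6 and 2.63 FPKM, D4 0.090, D5 6.52, the D6 samples 3.41, 0.81 and 1.88, D8 and D10 1.90 and 1.59, and the D12 samples 2.63, 6.39 and 5.47. D16, D20, D24 and D28 held 18.9, 11.4, 9.55 and 15.7 FPKM. The late samples were high in FPKM, and of the early ones the high-dropout library D3 replicate 2 alone reached into their range. In counts scaled to library size (CPM) the overlap was wider: the late D20 library, also a high-dropout one, held 11.40, below the early libraries D3 replicate 2 (14.9), D3 replicate 1 (13.8), D5 (12.4) and D2 (11.51). The value at D4 rests on 5 counts.

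Late against early cTECs gave a log2 fold change of 2.07 for Aire (SE 0.44, adjusted p = 0.00468), a fold of 4.21, beside 1.41% of 15845 genes called and 1.14% called higher. The call depended on the method: edgeR gave 1.68 (adjusted p = 0.109), limma on log2(FPKM + 0.5) gave 1.91 (adjusted p = 0.0848), and DESeq2 gave 1.72 with no adjusted p. Without the D28 library limma-voom gave 1.71 (adjusted p = 0.0322), short of the limit, while it gave 2.44 (adjusted p = 0.00165) without D20 and 2.17 (adjusted p = 0.00277) without D3 replicate 2. The summed mTEC markers in these cTEC samples were 4405 to 7285 FPKM late and 3622 to 7929 early. Ccl21a and Krt5 make up most of that sum, with medians of 4091 and 1621 FPKM over all cTEC samples. By fitted change in this contrast, 5 of the 6 mTEC markers were positive, with a median of 0.68 beside -0.041 over all genes. The part of these markers in the result was not tested. The summed macrophage and dendritic cell markers were 4.72 to 41.2 FPKM late and 4.48 to 20.5 early, and their part in the result was not tested. Cd80, a costimulatory ligand of mature mTECs that is among those mTEC markers, was also called in the same contrast, with a log2 fold change of 3.08 (SE 0.71, adjusted p = 0.00865). The late change of Aire was not shown to differ between cell types: mTECs minus cTECs was -0.71 (95% interval -2.69 to 1.26, adjusted p = 0.865).

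From D-2 to D6, Aire in cTECs had a log2 fold change of -2.43 (SE 0.65, unadjusted p = 0.004, adjusted p = 0.0591), and of -3.05 without D6 replicate 2 and -1.53 without D6 replicate 4. All 3 D6 samples lay below all 3 D-2 samples, which 24.9% of genes did in one direction or the other. The summed mTEC markers in the same cTEC samples were 3622 to 4235 FPKM at D6 and 5789 to 8086 at D-2, and the summed cTEC markers 4101 to 4746 and 528 to 799, and their part in the result was not tested. From NPC to D-2 the value was 1.11 with a 95% interval of -0.89 to 3.11, although the mean level was 8.41 FPKM in NPC and 8.07 at D-2.

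**Figure D2:**
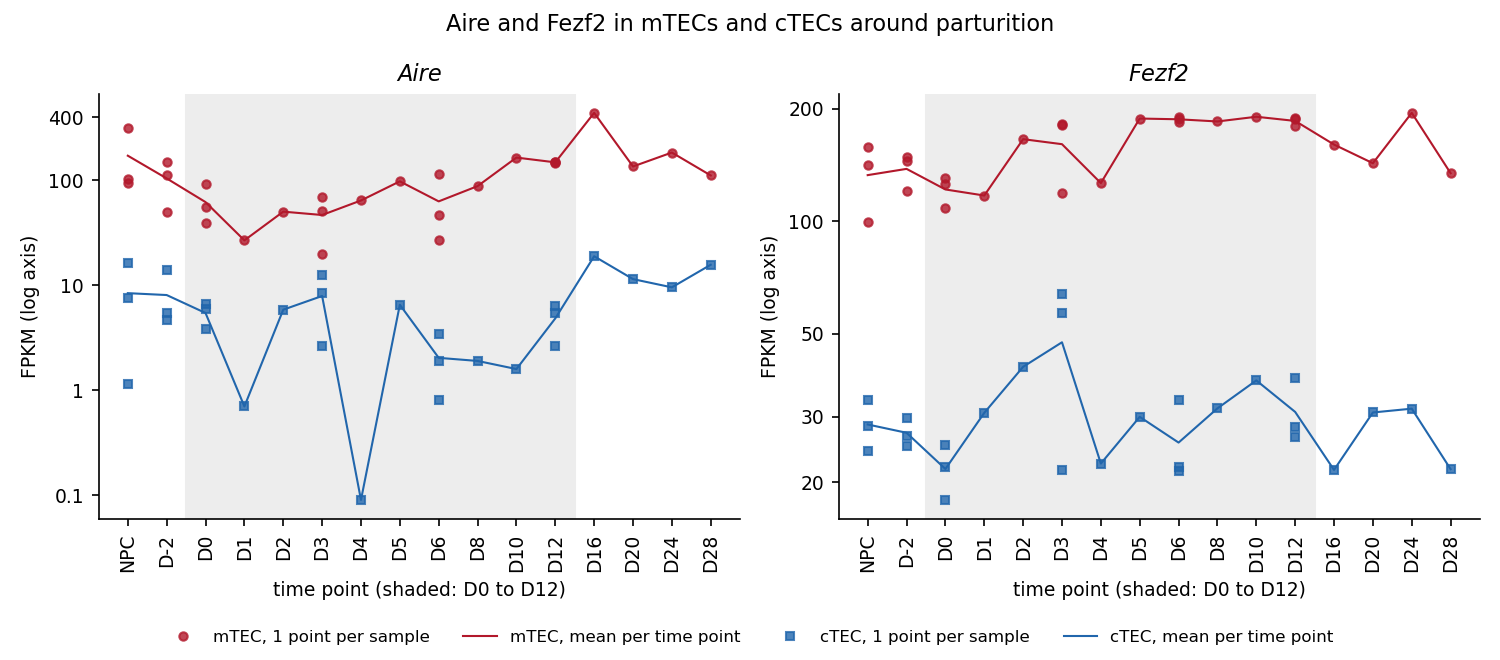
FPKM (log axes) of Aire and Fezf2 at the 16 time points in mTECs (circles) and cTECs (squares), 1 symbol per sample and lines through the means. Aire in mTECs is lowest in 1 high-dropout D3 sample at 20.03 FPKM and peaks in the D16 sample at 439 FPKM. Fezf2 in mTECs stays between 99.5 and 195 FPKM throughout.

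Sirt1, the deacetylase that acts on Aire, followed Aire in mTECs. The NPC samples held 43.8, 39.1 and 68.4 FPKM, the D-2 samples 45.4, 54.1 and 26.7, and the D0 samples 22.6, 38.4 and 20.2. D1 and D2 held 13.8 and 19.8 FPKM, the D3 samples 7.17, 12.25 and 23.45, D4 and D5 18.6 and 23.6, the D6 samples 25.7, 12.04 and 11.3, and D8 and D10 21.6 and 36.2. The D12 samples held 27.6, 57.6 and 50.8 FPKM, and D16, D20, D24 and D28 76.7, 34.5, 53.0 and 33.0. As for Aire, the lowest library was the high-dropout D3 replicate 1, the highest was D16, and NPC replicate 4 stood above the other NPC libraries.

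At D6 all 3 mTEC samples had less Sirt1 than all 3 at D-2, with a log2 fold change of -1.22 (SE 0.34, unadjusted p = 0.00426, adjusted p = 0.0893). It was not called here, but passed both limits with DESeq2 (-1.28, adjusted p = 0.00428) and with sample quality weights (-1.56, adjusted p = 0.00474). With the replicate block, which rested on replicates 1 and 4 alone, it was -0.73 (adjusted p = 0.0739). It was -0.84 (adjusted p = 0.284) without D6 replicate 2 and -1.14 (adjusted p = 0.5) in a fit to all 28 samples. The summed cTEC markers in the same mTEC samples were 433 to 1061 FPKM at D6 and 108 to 215 at D-2, and the summed macrophage and dendritic cell markers 12.9 to 44.5 and 51.95 to 92.6. Their part in this and the other results of D6 against D-2 in mTECs was not tested. Late against early mTECs gave 0.85 (SE 0.28, adjusted p = 0.0961), 1.10 (adjusted p = 0.00185) with D12 counted as late, and 0.64 (adjusted p = 0.324) without D16. The summed cTEC markers there were 103 to 193 FPKM late and 124 to 1061 early, which was likewise not tested.

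In cTECs Sirt1 was lower and moved less. It ranged from 4.91 FPKM at D4 to 34.7 in NPC replicate 4, a library in which the gene length that RSEM used for Sirt1 was the shortest of all, 1554 bases beside a median of 3356. Late cTECs held 16.0, 21.9, 11.99 and 17.6 FPKM and early ones 4.91 to 15.3, which overlapped. The highest of these, D20, is a high-dropout library. In CPM D20 was the lowest late library, 36.7 beside 49.8, 44.2 and 50.9, and lay below D0 replicate 2 (43.4). Late against early gave a log2 fold change of 0.60 (SE 0.17, adjusted p = 0.0257), under the 2-fold limit. D6 against D-2 gave -0.81 (SE 0.25, adjusted p = 0.0885).

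Hipk2, a kinase that phosphorylates Aire, had its highest mean at D-2 among the replicated time points of both cell types, but in cTECs D0 was next to it, with means of 21.3 and 20.8 FPKM and overlapping samples. In mTECs the NPC samples held 8.33, 12.5 and 16.0 FPKM, the D-2 samples 23.5, 20.3 and 18.5, and the D6 samples 13.97, 13.3 and 17.0. Every D-2 sample lay above every NPC and every D6 sample. The log2 fold changes were 0.89 from NPC to D-2 (SE 0.22, unadjusted p = 0.00181, adjusted p = 0.157) and -0.60 from D-2 to D6 (SE 0.15, adjusted p = 0.0734). Both contrasts share the 3 D-2 samples. In cTECs the NPC samples held 21.4, 10.1 and 8.21 FPKM, the D-2 samples 15.0, 21.9 and 27.0, the D0 samples 12.7, 18.9 and 31.0 and the D6 samples 16.8, 10.4 and 10.02, and the groups overlapped. The values there were 0.80 (SE 0.32, adjusted p = 0.488) and -0.69 (SE 0.20, adjusted p = 0.0796). After D6 Hipk2 showed no steady course, with single libraries between 10.4 and 28.1 FPKM, the highest being the high-dropout library D20 of the cTECs.

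Chd4, the helicase of the NuRD remodeling complex and a partner of Fezf2, held a near level course apart from 1 library. In mTECs 27 of 28 samples lay between 59.9 and 99.7 FPKM, and the other, the high-dropout D3 replicate 1, held 186. There RSEM used a length of 3283 bases for Chd4, the shortest of all libraries, and the excess was smaller in counts scaled to library size (CPM), 596 beside 398 and 380 in the other D3 samples. In cTECs Chd4 lay between 50.9 FPKM, in the high-dropout library D3 replicate 2, and 96.3 FPKM. Its largest fitted change over time was -0.39 from D-2 to D6 in cTECs (SE 0.17, unadjusted p = 0.0482, adjusted p = 0.21), where 95.8, 80.7 and 92.7 FPKM at D-2 stood beside 78.0, 67.9 and 64.0 at D6. Late against early gave 95% intervals of -0.22 to 0.18 in mTECs and -0.34 to 0.16 in cTECs.

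**Figure D3:**
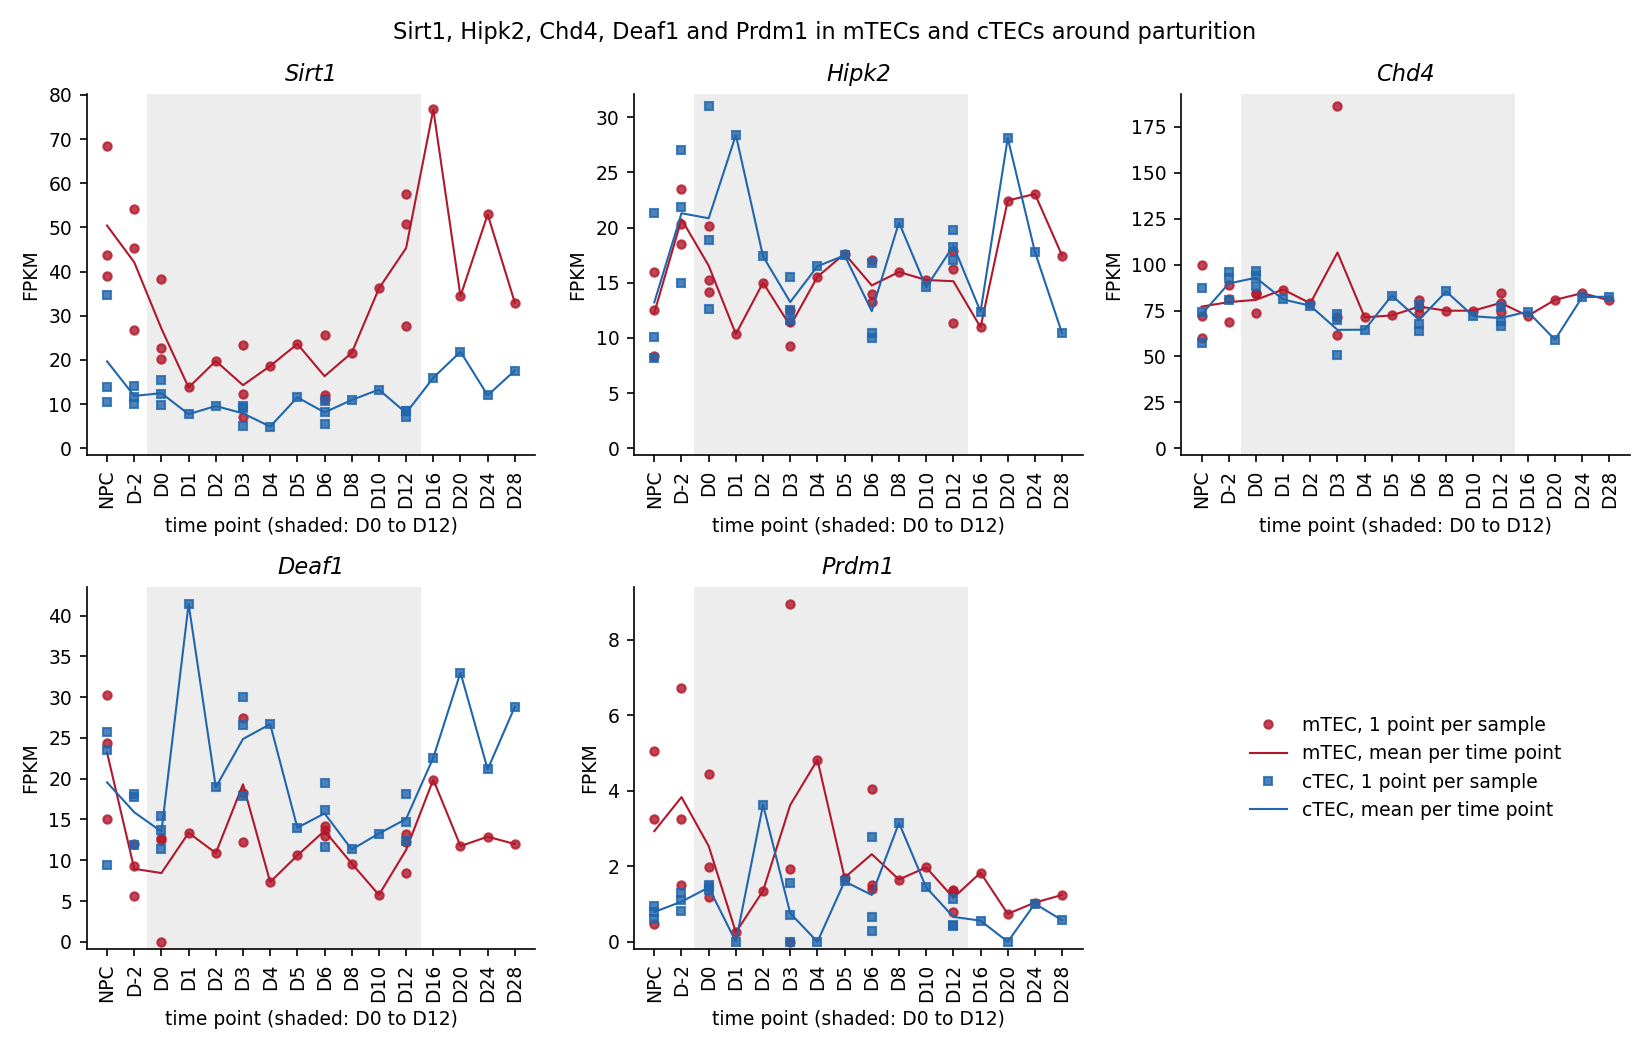
FPKM (linear axes from 0) of Sirt1, Hipk2, Chd4, Deaf1 and Prdm1 at the 16 time points in mTECs (circles) and cTECs (squares), 1 symbol per sample and lines through the means. Sirt1 in mTECs falls to 7.17 FPKM in 1 high-dropout D3 library and reaches 76.7 at D16. Chd4 is level apart from 186 FPKM in the same mTEC library at D3.

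Fezf2 in mTECs had its lowest means at D1 and D0, with 117 and 122 FPKM, and no test compared its course with that of Aire. In mTECs the NPC samples held 158, 99.5 and 141 FPKM, the D-2 samples 145, 148 and 121, the D0 samples 130, 126 and 108, and D1 and D2 117 and 166. The D3 samples held 182, 181 and 119 FPKM, D4 and D5 126 and 188, the D6 samples 185, 188 and 190, D8 and D10 185 and 190, and the D12 samples 180, 189 and 188. D16, D20, D24 and D28 held 160, 143, 195 and 134 FPKM. From D5 to D12 every library was between 180 and 190, a narrow range beside the other time points. All 3 D6 samples lay above all 3 D-2 samples, with a log2 fold change of 0.47 (SE 0.13, unadjusted p = 0.00511, adjusted p = 0.097), and 23.7% of genes were as cleanly separated. Late against early gave -0.12 (95% interval -0.42 to 0.19), and D-2 against NPC 0.15 (95% interval -0.35 to 0.65).

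In cTECs Fezf2 was highest at D3, where 56.9, 63.7 and 21.6 FPKM were measured, beside 25.2, 17.9 and 21.9 at D0 and 21.4, 21.9 and 33.3 at D6. The D3 samples overlapped both, and one of the high ones is the high-dropout library D3 replicate 2. D6 against D-2 gave -0.21 (SE 0.20, adjusted p = 0.59). The difference of this contrast between cell types was 0.68 (SE 0.24, unadjusted p = 0.0126, adjusted p = 0.278), the mTEC value being the higher, and it was not called. RSEM used the same length for Fezf2 in every library, 2304 bases, so that its FPKM follows its counts.

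Deaf1 in mTECs was highest in NPC, where 24.4, 30.2 and 15.0 FPKM stood above 11.98, 5.61 and 9.27 at D-2 without overlap. The log2 fold change was -0.68 (SE 0.37, adjusted p = 0.451), and from D-2 to D6 (14.2, 13.7 and 13.0 FPKM) it was 0.54 (SE 0.26, adjusted p = 0.283). Deaf1 was listed at 0 in mTEC D0 replicate 2, one of the high-dropout libraries. In cTECs it ranged from 9.38 to 41.4 FPKM. The late cTECs held 22.6, 33.0, 21.1 and 28.8 FPKM and the early ones had a mean of 18.5, with a log2 fold change of 0.53 (SE 0.17, adjusted p = 0.0455). Over the alternative settings and left-out samples that value ran from 0.24 to 0.66. The highest late library, D20, is a high-dropout one. In CPM it held 45.5 beside 24.6, 29.8 and 27.3 in the other late libraries and 29.4 in the early D1 library.

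Prdm1 was the least abundant of the 7 genes, with medians of 79.5 expected counts per mTEC library and 39 per cTEC library. It was listed at 0 in 1 mTEC and 4 cTEC libraries, D3 replicate 1 of the mTECs and D1, D3 replicate 2, D4 and D20 of the cTECs. Both D3 libraries and D20 are high-dropout libraries. In mTECs the highest value was 8.95 FPKM in D3 replicate 2, beside 0 and 1.92 in the other D3 samples. RSEM used its shortest length for Prdm1 there, 830 bases beside a median of 3159, and in CPM that library held 6.68 beside 6.74 in D3 replicate 3, below 14.7 in D6 replicate 1. The late mTEC samples held 1.83, 0.74, 1.04 and 1.24 FPKM. The intervals of its changes were wide, from -0.054 to 3.47 for D-2 against NPC in mTECs and from -4.43 to 2.03 for late against early in cTECs. No change of Prdm1 over time was called.

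Apart from Aire in late against early cTECs, none of the 7 genes was called over time. The background was 0% of 17743 genes for D-2 against NPC in mTECs, 0% of 15845 genes in cTECs and 0% for late mTECs against NPC by limma-voom, and other settings called 0 to 165, 0 to 96 and 0 to 4 genes there. D6 against D-2 called 0.299% of genes in mTECs and 1.34% in cTECs, late against early 0.0620% in mTECs, and each test of a difference between cell types 0.00544%. An unadjusted p under 0.05 was reached for D-2 against NPC by 1 of the 7 genes, Hipk2, in each cell type, beside 12.8% of all genes (2267) in mTECs and 9.87% (1564) in cTECs. For D6 against D-2 it was reached by 3 in mTECs (Sirt1, Hipk2 and Fezf2) and 4 in cTECs (Aire, Hipk2, Sirt1 and Chd4), beside 20.3% and 23.3%. For late mTECs against NPC the count was 0, beside 5.74% (1019 genes). Samples did not overlap for 2 genes at D-2 against NPC in mTECs (Hipk2 and Deaf1), beside 14.4% of all genes, and for 0 in cTECs, beside 14.1%. At D6 against D-2 they did not overlap for 4 genes in mTECs (Sirt1, Hipk2, Fezf2 and Deaf1), beside 23.7%, and for 2 in cTECs (Aire and Chd4), beside 24.9%. With 3 samples against 3, an exact two-sided permutation test cannot go below 0.10.

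Of 16 proteins that bind Aire on chromatin (topoisomerases, DNA repair proteins, elongation factors and chromatin readers), 1 was called in mTECs against cTECs, Top2a, a topoisomerase of dividing cells (log2 fold change 1.96, SE 0.19), and the median of the list was 0.064 beside 0.030 over all genes. From D-2 to D6 in mTECs Top1, the DNA topoisomerase that Aire recruits, was called lower (-1.16, SE 0.14, adjusted p = 0.00945 by limma-voom). It had stood higher at D-2 than in NPC, by 1.72 (adjusted p = 0.0628), short of the limits, and the contrasts share the D-2 samples. No partner was called in D-2 against NPC, late against early, late mTECs against NPC or the differences between cell types. Of 13 NuRD subunits that complete the Chd4 complex, none was called in any comparison. The widest were Mbd2, a methyl-CpG binding subunit, at -0.99 (SE 0.05) in mTECs against cTECs, and Chd3, the paralog of Chd4, at 0.87 (adjusted p = 0.182) for D-2 against NPC in mTECs.

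Aire is switched on downstream of RANK, CD40 and the lymphotoxin receptor. Of 13 genes of these receptors and their signaling, 5 were called higher in mTECs than in cTECs and none lower: Spib (log2 fold change 3.14, SE 0.11), an Ets transcription factor, Tnfrsf11b (3.97, SE 0.45), the decoy receptor for RANK ligand, Irf4 (2.67, SE 0.26), Tnfrsf11a (2.55, SE 0.16), which encodes RANK, and Cd40 (1.99, SE 0.15). Of all genes tested, 16.5% were called higher. The list median was 0.72, with 11 of 13 values above 0. Ltbr, which encodes the lymphotoxin receptor itself, leaned the other way at -0.72 (SE 0.093, adjusted p = 6.67e-09 by limma-voom), under the 2-fold limit. None of the 13 was called over time. The largest in late against early mTECs were Tnfrsf11b at 0.96 (adjusted p = 0.093) and Irf4 at 0.73 (adjusted p = 0.259), and 11 of 13 values were above 0 there, with a list median of 0.22 beside -0.013 over all genes.

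Of 9 Aire-dependent genes 6 passed the filter on low values and 5 were called higher in mTECs: Bpifb1 (log2 fold change 4.69), Spt1 (3.52), Fabp2 (3.14), Bpifb9a (3.10) and Mup1, which was listed at 0 in every cTEC library. Of 10 Fezf2-dependent genes 9 passed the filter and 7 were called higher, with Coch (4.90), Calb1 (4.03) and Apob (3.24) in front of Krt10, Resp18, Fabp9 and Ttr. Of the genes called, 4 of the 5 Aire-dependent and 1 of the 7 Fezf2-dependent ones passed the filter through their mTEC level alone and so had to be higher there, and these counts support nothing about the lists.

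Over time Krt10, a keratin of differentiated epidermis, was the 1 readout called, at -3.01 from D-2 to D6 in mTECs (SE 0.40, adjusted p = 0.00945). The list medians for that contrast were -1.30 over the 6 Aire-dependent genes and -1.56 over the 9 Fezf2-dependent genes, beside 0.021 over all genes, while Fezf2 itself stood at 0.47. From NPC to D-2, which shares the D-2 samples, the Aire-dependent genes had a median of 2.02 and were positive in 6 of 6. The median over all genes was 0.17, and Aire itself stood at -0.61. None of the 6 was called, and their mean levels over all mTEC samples were low, from 0.638 (Mup1) to 8.555 FPKM (Spt1). Their lowest unadjusted p by limma-voom was 0.0935, for Spt1 at 3.14 (SE 1.71). Mup1 stood at 2.45 (SE 2.41) and Bpifb1 at 0.064 (SE 0.64), so a rise of these genes was not shown. From early to late in mTECs the Fezf2-dependent genes were positive in 9 of 9 with a median of 0.98, with none called. The largest were Ttr, the transthyretin of liver and choroid plexus, at 3.23 (SE 0.84, adjusted p = 0.0442), and Fabp9, a fatty acid binding protein of testis, at 2.31 (SE 0.45, adjusted p = 0.0118). The Aire-dependent genes were positive in 2 of 6 with a median of -0.24. The largest among them were Bpifb9a at -2.74 (SE 1.62, adjusted p = 0.351) and Mup1 at -0.79 (SE 1.56, adjusted p = 0.814).

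**Figure D4:**
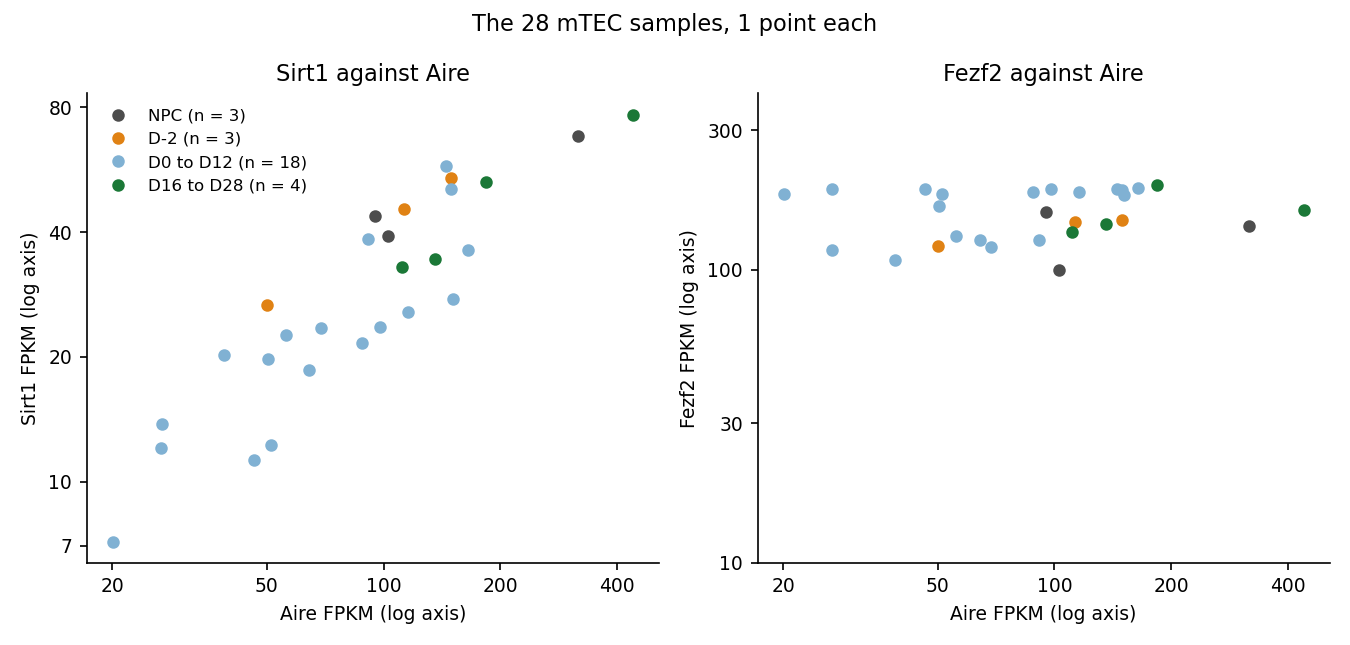
Sirt1 (left) and Fezf2 (right) against Aire in the 28 mTEC samples (FPKM, log axes), 1 point per sample, shaded by group. Over all samples Sirt1 is higher where Aire is higher, with r = 0.90, which does not hold among the 3 D12 samples, and Fezf2 has r = 0.17.

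Over the 28 mTEC samples the gene most like Aire on the log2(FPKM + 0.5) scale was Dusp4, a phosphatase of MAP kinases (Pearson r = 0.93, Spearman rho = 0.93). It was followed by H2-Eb2, an MHC class II chain (r = 0.91), Dsg1a, a desmosomal cadherin (r = 0.91), Sirt1 (r = 0.90, rho = 0.87) and Has2, a hyaluronan synthase (r = 0.90). Sirt1 was thus 4th of 17701 genes by r, but 26th by rho, and 8th by r without the NPC samples. Without the 2 samples farthest from the median of Aire its r was 0.87. Cd40, Cd80 and Tnfrsf11a also went with Aire, at r = 0.85 (37th), 0.79 (135th) and 0.70 (419th). The other members were far down the ranking by r, Hipk2 at r = 0.25, Prdm1 at 0.26, Fezf2 at 0.17, Deaf1 at -0.076 and Chd4 at -0.38. The genes most like Fezf2 had lower values: Ing1, a reader of methylated histones (r = 0.82), Poc1a, a centriole protein (r = 0.74), Prokr2, a prokineticin receptor (r = 0.74), Foxp4, a forkhead factor (r = 0.72), and Wnk2, a kinase (r = 0.71). These are descriptions over samples that share libraries, time points and depth.

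By position, Aire (ENSMUSG00000000731) lies at chr10:78030022-78043610, Sirt1 (ENSMUSG00000020063) at chr10:63319005-63381704 and Prdm1 (ENSMUSG00000038151) at chr10:44437177-44528501. Chd4 (ENSMUSG00000063870) lies at chr6:125095981-125130591, Hipk2 (ENSMUSG00000061436) at chr6:38694390-38876165, Fezf2 (ENSMUSG00000021743) at chr14:12342094-12348189 and Deaf1 (ENSMUSG00000058886) at chr7:141297180-141327690, all on GRCm38. All but Chd4 are on the minus strand. Genes on the opposite strand overlap Aire (Dnmt3l, median 4.99 FPKM in mTECs and 0.53 in cTECs), Sirt1 (Gm16145, 0 in both) and Hipk2 (Tbxas1, 0.040 and 0). Whether strand was used in counting was not stated, so reads of Dnmt3l and Aire may not be fully separate.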

How the data were processed

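The authors trimmed reads with Trimmomatic 0.35, aligned them to GRCm38 with STAR 2.5.1b and quantified genes with RSEM 1.2.28 (tools per the labels; bcl2fastq 2.20 made the reads). They deposited, per sample, expected counts, which are not normalized, TPM and FPKM for 50600 genes. The library kit was stranded and selected polyA RNA; the annotation release was not given in the sources used here, and GENCODE M21 matched 50376 identifiers without their version.

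Expected counts were rounded, scaled by TMM and fitted with limma-voom (limma 3.58.1, edgeR 4.0.16, R 4.3.3) to genes whose FPKM averaged 0.5 or more in a cell type (28 samples). mTECs against cTECs used all 56 samples with 1 mean per time point; each contrast over time used its own samples. Alternatives were edgeR, DESeq2 1.42.0, limma on log2(FPKM + 0.5) or log2(FPKM + 0.1), quality weights, no TMM, no filter, a replicate block, other phase limits and leaving out samples. Fits of some comparisons were tried on counts simulated with the same dispersion for every gene. Late against early in cTECs was not among them, and no result above rests on this trial. The 7 genes are named in every comparison; list genes are named where called or else as the 2 of largest change, and the 5 genes most like Aire and Fezf2 are given by r. Members and lists were chosen with earlier results of these data known. Each replicate came from 1 mouse, but whether samples of the same number share a mouse was not stated. The values of 1 gene of the partner list are not reported here.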

Additional observations from a re-analysis of the deposited data

Results flagged for a closer look

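Deaf1 in the 4 late mTEC samples was flagged because 1 sample stood apart from the others. The D16 sample held 19.89 FPKM, beside 11.7, 12.9 and 11.99 at D20, D24 and D28. Such a test flags about 1 in 20 groups by chance, and 14 groups of 4 were looked at. In CPM, which does not use the gene length, the same 4 samples held 18.3, 15.1, 18.2 and 12.4, so that D16 did not stand apart. The length that RSEM used for Deaf1 ranged from 562 to 2184 bases over the libraries.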

How the results depend on the processing

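The calls of Aire, Fezf2 and Sirt1 in mTECs against cTECs held under every alternative tried, with 3 to 4 of the 7 genes called; the 4th was Prdm1, with DESeq2, limma on log2(FPKM + 0.1) or an adjusted p limit of 0.05. Over time the calls were less stable. D6 against D-2 in mTECs called 1 of 7 with DESeq2 and 1 with quality weights, against 0, and late against early mTECs called 2 with D12 counted as late, against 0. Late against early cTECs called 0 with edgeR, DESeq2, limma on log2(FPKM + 0.5), limma on log2(FPKM + 0.1) and D12 counted as late, against 1, and 0 to 1 when single samples were left out. Refits were tallied for 27 results, not for every gene in every comparison. These were all 7 genes in mTECs against cTECs, and elsewhere Aire or genes with an unadjusted p under 0.05 by limma-voom. Of their 513 refitted values, 481 kept direction and call, 7 became calls, 6 lost the call and 19 changed sign. Chd4 in mTECs against cTECs was -0.034 with quality weights, -0.012 without TMM, -0.045 without the filter, -0.026 with the replicate block, -0.018 in the replicated time points alone, and -0.059 to 0.056 leaving out samples or time points. Aire for D-2 against NPC in cTECs was -0.016 with edgeR, -0.011 with DESeq2 and -0.39 to 1.91 leaving out samples, the lowest without NPC replicate 4. Aire in late mTECs against NPC was -0.16 with quality weights and -0.080 to 0.86 leaving out samples, the lowest without D16. The cause was not tested.

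Counts over all genes moved widely: from 53 to between 0 and 470 for D6 against D-2 in mTECs, from 213 to 5 to 757 in cTECs, from 11 to 1 to 184 for late against early mTECs, from 223 to 0 to 1045 in cTECs, from 1 to 1 to 126 and 0 to 10 for the differences between cell types, and from 3897 to 2833 to 4494 for mTECs against cTECs. Deviations of same-numbered samples had small correlations between cell types of a time point (r from -0.14 to 0.13), most of them positive. Samples of different numbers had r from -0.17 to 0.28. This does not settle whether same-numbered samples share a mouse, and the main fits did not take the numbers as pairs. With the replicate block D6 against D-2 in mTECs called 251 genes and D-2 against NPC in cTECs 23, and no call of the 7 genes changed. In both contrasts only the numbers 1 and 4 occurred in both groups, so the fitted changes came from those samples alone. The block could not be fitted for D6 against D-2 in cTECs. The alternatives without mTEC D0 replicate 2, mTEC D3 replicate 1 or cTEC D3 replicate 2 were added after seeing the data.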
